A study of Mus musculus with 19 samples.

Results

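Unsorted nephrogenic zone cells of the mouse embryonic kidney were set against the SIX2+ and SIX2− cells sorted from that zone, and genes above or below both fractions were collected. An exact mixture of the fractions would have levels between theirs. Measurement spread also puts genes outside a range of 2 values, above all those with like levels in both fractions, so membership alone does not show a difference. A gene was a member when its unsorted value lay outside the range of the same-numbered SIX2+ and SIX2− values in both replicate 1 and replicate 3. Of 12493 genes at 1 or more in 3 or more of the 9 libraries, 5765 (46.1%) were members, of 20162 gene names in the table. Above both fractions were 2646 genes (21.2%), and below both were 3119 (25.0%).

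All libraries used here came from kidneys of CFW mouse embryos, an outbred stock, at stage E16.5, with 3 libraries a group. Unsorted nephrogenic zone cells are called NZC below. The SIX2+ and SIX2− cells came from such zone cells, and these 3 groups carry the title MARIS, a technique in which cells are fixed, stained for a protein inside them, sorted, and used for RNA. The 6 SIX2+ and SIX2− libraries are called the sorted libraries below. The allele of the NZC, SIX2+ and SIX2− groups is given as NA. GFP+ and GFP− cells came from developing kidneys of Six2TGC/+ embryos, in which Six2 regulatory sequences drive a GFP and Cre transgene, and share no library with the other groups. The labels name 2 RNA isolation kits for every library, one of them made for fixed material, without saying which library had which or whether unsorted cells were fixed. They also do not say whether replicates were separate litters or pools. The p-values below therefore measure the spread between these libraries.

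The nephrogenic zone is the outer rim of the growing kidney. There, progenitors that express the transcription factor SIX2 either renew or form nephrons, next to stromal progenitors, ureteric tips, blood vessels and resident macrophages. Embryonic red cells circulate through the vessels and carry very large amounts of globin mRNA. Haemoglobin is built from alpha chains (Hba genes) and beta chains (Hbb genes), and Alas2 starts haem synthesis in red cell precursors.

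The genes farthest above both fractions were the adult globins. The bases before the RefSeq starts of an alpha and a beta globin are shown because these genes, on different chromosomes, moved together. Capitals mark GATAA (the core of GATA factor sites), CACCC (the core of Krüppel-like factor sites), the CCAAT box and a TATA box spelled ATATAA. The windows are 250 bases long in build GRCm38.p6, at chr11:32296242-32296491 on the plus strand for Hba-a2 and chr7:103827929-103828178 on the minus strand for Hbb-bs.
Hba-a2: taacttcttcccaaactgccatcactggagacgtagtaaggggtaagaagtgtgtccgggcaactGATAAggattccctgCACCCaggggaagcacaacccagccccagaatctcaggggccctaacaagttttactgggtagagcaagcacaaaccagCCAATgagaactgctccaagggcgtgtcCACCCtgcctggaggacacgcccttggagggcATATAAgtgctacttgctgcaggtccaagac
Hbb-bs: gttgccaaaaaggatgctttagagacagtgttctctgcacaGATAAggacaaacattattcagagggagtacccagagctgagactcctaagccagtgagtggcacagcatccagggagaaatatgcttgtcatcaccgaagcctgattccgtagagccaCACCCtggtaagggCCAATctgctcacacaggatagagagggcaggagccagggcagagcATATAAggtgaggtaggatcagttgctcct
The GENCODE model of Hbb-bs starts farther upstream, so 168 bases of its window lie inside that model, against 3 for Hba-a2. The Hba-a1 window shares an unbroken run of 247 bases with that of Hba-a2, and the Hba-a1 and Hbb-bt windows held all 4 motifs too. Searched on both strands in 32851 windows of the same length, GATAA was in 22.6%, CACCC in 52%, CCAAT in 33.8% and ATATAA in 9.1%, and 0.466% held all 4. The motifs do not overlap one another in these windows. A match describes the letters and is not evidence of binding.

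Depth and the sort itself set the frame for every value. Estimated depth, in units of 1000000 reads, was 34.2 for NZC 1 and 37.7 for NZC 3, against 26.3 to 45.5 in the 6 sorted libraries. NZC 2 had 3.09 units and 6774 genes at 0, against 2494 to 4482 in the other 14 libraries. NZC 2 was therefore left out of the main test and is shown beside it. Six2 itself was at 65.2 RPKM in NZC 1, 68.1 in NZC 2 and 166.5 in NZC 3. It was at 300.7, 294.6 and 457.9 RPKM in the SIX2+ libraries and at 4.43, 7.59 and 46.8 RPKM in the SIX2− libraries. The unsorted value lay between the fractions in every replicate. A sort for SIX2 sets these far apart in Six2, so this says little about a mixture. RPKM here is reads per kilobase of gene model, scaled to library depth.

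Genes that differed strongly between the fractions gave the position of the unsorted cells between them. With SIX2− at 0 and SIX2+ at 1, the median position was 0.17 in replicate 1 (206 genes), 0.33 in replicate 2 (186) and 0.49 in replicate 3 (145), over genes that differed by at least 3 log2 units between the fractions. Six2 stood at 0.21, 0.21 and 0.29. In replicate 1, 56 of the 206 genes lay beyond the SIX2− end, and in replicate 3, 4 of 145. Most of these genes were higher in SIX2− cells. The 31, 25 and 10 that were higher in SIX2+ cells had median positions of 0.20, 0.10 and 0.29 in replicates 1, 2 and 3, against 0.17, 0.39 and 0.50 for the others, so the position depended on which genes were used.

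The counts were first taken in each replicate alone. In replicate 1, 3992 genes (32.0%) were above and 4605 (36.9%) below, and in replicate 3, 4044 (32.4%) and 4104 (32.9%). In both, 2300 genes (18.4%) lay inside, and 787 (6.3%) were above in one replicate and below in the other. Most members lay close to the range: 68 genes were at least 1 log2 unit above it in both replicates, and 4 at least 1 unit below. In replicate 2, which the rule did not use, 1484 (56.1%) of the 2646 genes were above again and 734 were below. Of all genes tested, 28.7% were above and 50.7% below in that replicate. Of the 3119 genes below, 2255 (72.3%) were below again and 564 were above. With each column rescaled to the same sum, 3772 genes were above and 1942 below, and the median of all genes moved to 0.11 log2 units over SIX2+ cells, against −0.03 as deposited. The balance between the sides thus depends on the scale.

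A test over libraries kept far fewer genes. A gene was called when limma gave NZC minus SIX2+ and NZC minus SIX2− the same sign and the larger of the 2 p-values was under 0.05 after adjustment over all genes. Of all genes tested, NZC was higher than SIX2+ in 19.9% and lower in 15.6%, and higher than SIX2− in 5.66% and lower in 3.64%, each taken alone. The joint test used NZC 1 and 3, as the rule did, so the calls are not independent of it. The joint test called 112 genes above both fractions (0.897% of genes tested) and 10 below both (0.0800%). In all 112 genes, NZC 1 and 3 were above all 6 sorted libraries, and in all 10 they were below them. In NZC 2, which took no part in the test, 109 of the 112 lay above the range again and 10 of the 10 below. The range in replicate 2 comes from SIX2+ 2 and SIX2− 2, which were in the test, so only the NZC 2 value is new. Of all genes tested, 28.7% were above and 50.7% below in replicate 2. The distance from the nearer fraction, the smaller of the 2 log2 differences of RPKM + 1, is called the margin below. It was at least 1 in 83 of the 112 genes and at most −1 in 4 of the 10. At the threshold, Bicc1 was the last gene called above (adjusted p = 0.0481 in limma) and Ppp1r12a the first not called (0.0505). Snhg20 was the last called below (0.0327) and Zfp707 the first not called (0.0523).

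These counts depended on single libraries. There were 12 above and 2 below without NZC 1, 62 and 4 without NZC 3, 35 and 4 without SIX2− 1, and 37 and 4 without SIX2− 2. The count below was 6 without SIX2+ 1, 18 without GFP+ 1 and 27 without GFP+ 3. With quantile normalisation there were 88 above and 25 below. The test did not pair libraries by number, and with a replicate block there were 433 above and 319 below.

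**Figure D1:**
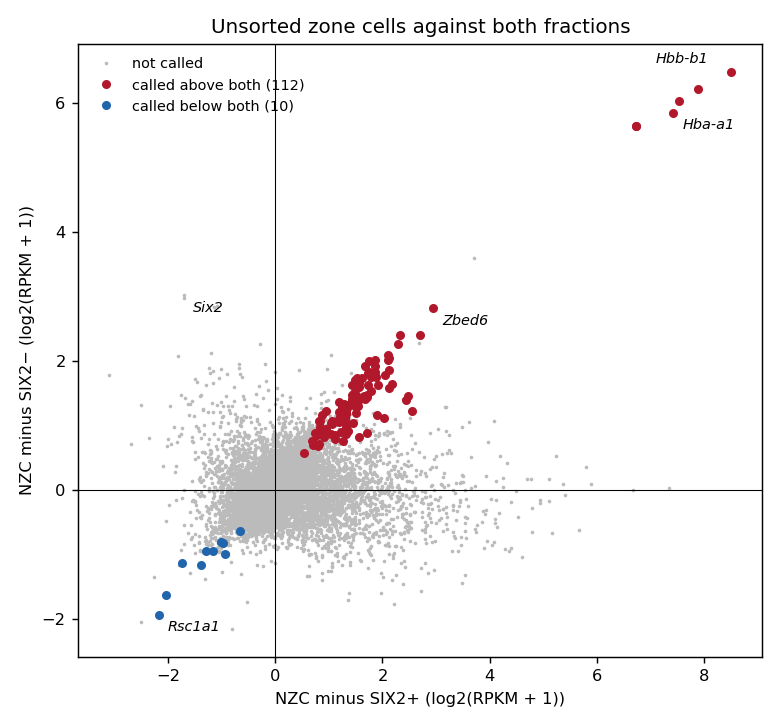
Difference of unsorted cells (NZC 1 and 3) from SIX2+ cells (x axis) and from SIX2− cells (y axis), on the log2(RPKM + 1) scale, for 12493 genes; coloured points are the 112 genes called above both fractions and the 10 called below both. The globins lie at the upper right, Rsc1a1 is the lowest blue point, and Six2 lies left of 0 and above 0, between the fractions.

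Adult globins stood above both fractions by a wider margin than any other called gene. Hbb-b1, an adult beta globin, was at 1509.85 RPKM in NZC 1, 1742 in NZC 2 and 173 in NZC 3. It was at 0.56, 0.53 and 0.17 RPKM in SIX2+ cells and at 7.10, 7.22 and 1.86 RPKM in SIX2− cells. NZC 3 was well under NZC 1 and 2, and all NZC libraries were above all sorted ones. The margin of Hbb-b1 over SIX2− cells was 6.48 ± 0.98 (SE; limma adjusted p = 0.00957). Hbb-bs, a beta globin on chromosome 7 from 103826534 to 103828096, had 868.1, 928.1 and 95.6 RPKM in NZC 1, 2 and 3. It had at most 0.30 RPKM in SIX2+ cells and 0.99 to 5.29 RPKM in SIX2− cells. Its margin was 6.21 ± 0.98, with the same order of libraries as Hbb-b1.

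The alpha globins followed. Hba-a1 (chromosome 11, 32283511 to 32284465) had 830.1, 799.6 and 68.7 RPKM in NZC 1, 2 and 3, at most 0.79 RPKM in SIX2+ cells and 1.25 to 5.44 RPKM in SIX2− cells. Hba-a2 (chromosome 11, 32296489 to 32297298) had 798.04, 1015 and 69.0 RPKM in NZC 1, 2 and 3, at most 0.55 RPKM in SIX2+ cells and 0.87 to 4.32 RPKM in SIX2− cells. The margins were 5.84 ± 1.02 for Hba-a1 and 6.02 ± 1.03 for Hba-a2, and the unsorted and sorted libraries did not overlap. Hbb-bt and Hbb-b2 had identical values in all 15 libraries, 408.5, 223.1 and 32.0 RPKM in NZC 1, 2 and 3, with a margin of 5.64 ± 0.95. They count as 1 measurement, and near copies among globins can share reads, so the level of a single globin is uncertain. In SIX2+ 1, 2 and 3, Hbb-b1 (0.564, 0.530 and 0.166 RPKM) kept a fixed proportion to Hbb-bs (0.300, 0.282 and 0.0886 RPKM). Hba-a1 and Hba-a2 did so as well, so the members of these pairs are not fully separate measurements. Limma's adjusted p was 0.00995 for Hbb-bs, 0.0132 for Hba-a2, 0.0154 for Hba-a1 and 0.0129 for Hbb-bt. Without NZC 1 no globin passed the test, with a margin of 4.92 (adjusted p = 0.122) for Hbb-b1 and 4.05 (0.214) for Hba-a1. Without SIX2− 1, Hba-a1 had an adjusted p of 0.0518, and without SIX2− 2, Hbb-bt and Hbb-b2 had 0.051.

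The rest of the red cell list moved less evenly. Of its 24 genes, 23 were in the table and 13 passed the filter on low values, which a gene could pass through the NZC columns alone. Of these 13, 6 were called above, all of them globins, and 11 were above the range in replicates 1 and 3. Of all genes tested, 0.897% were called above and 21.2% were above in both replicates. Both list counts include Hbb-bt and Hbb-b2, which are 1 measurement. They also include Hbb-b1 with Hbb-bs and Hba-a1 with Hba-a2, which are not fully separate, so both counts overstate the separate measurements. Alas2 was at 25.4, 12.04 and 5.75 RPKM in NZC 1, 2 and 3, at most 0.035 RPKM in SIX2+ cells and at most 0.17 RPKM in SIX2− cells. Its margin was 3.59 ± 0.87 and it was not called (limma adjusted p = 0.0803), though all NZC libraries were above all sorted ones. Hbb-y, an embryonic beta-like globin, was at 5.25, 1.04 and 1.66 RPKM in NZC 1, 2 and 3 and at most 0.32 RPKM in any sorted library (margin 1.75 ± 0.90, limma adjusted p = 0.482). Fech, the last enzyme of haem synthesis, and Bpgm, which makes the haemoglobin ligand bisphosphoglycerate, had margins of 0.11 and 0.03. Tfrc, the transferrin receptor that takes up iron in many dividing cells, was inside the range in replicate 1, with 26.6 RPKM in NZC 1, and above it in replicate 3, with 25.4 RPKM in NZC 3 against 19.2 in SIX2+ 3 and 15.03 in SIX2− 3.

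Globins made up 1.31%, 1.17% and 0.127% of all RPKM in NZC 1, 2 and 3. They made up at most 0.000592% in SIX2+ cells and 0.00157% to 0.00592% in SIX2− cells. In these bulk libraries, fewer cells of a type and less RNA per cell cannot be told apart. The GFP sort, which shares no library with these, also held globins on its negative side. Hbb-b1 was at 28.8, 23.7 and 6.36 RPKM in GFP+ cells and at 430.8, 2360.3 and 4546 RPKM in GFP− cells. The difference was −6.57 ± 0.88 log2 units (limma adjusted p = 4.84e-05). The GFP− libraries thus overlapped the NZC ones in Hbb-b1, and the highest SIX2− library stood at 7.22 RPKM. Of the 13 red cell genes, 10 were lower and 2 higher in GFP+ cells, against 20.2% lower and 23.6% higher among all genes tested. The 10 include both Hbb-bt and Hbb-b2, and both members of the other 2 globin pairs.

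**Figure D2:**
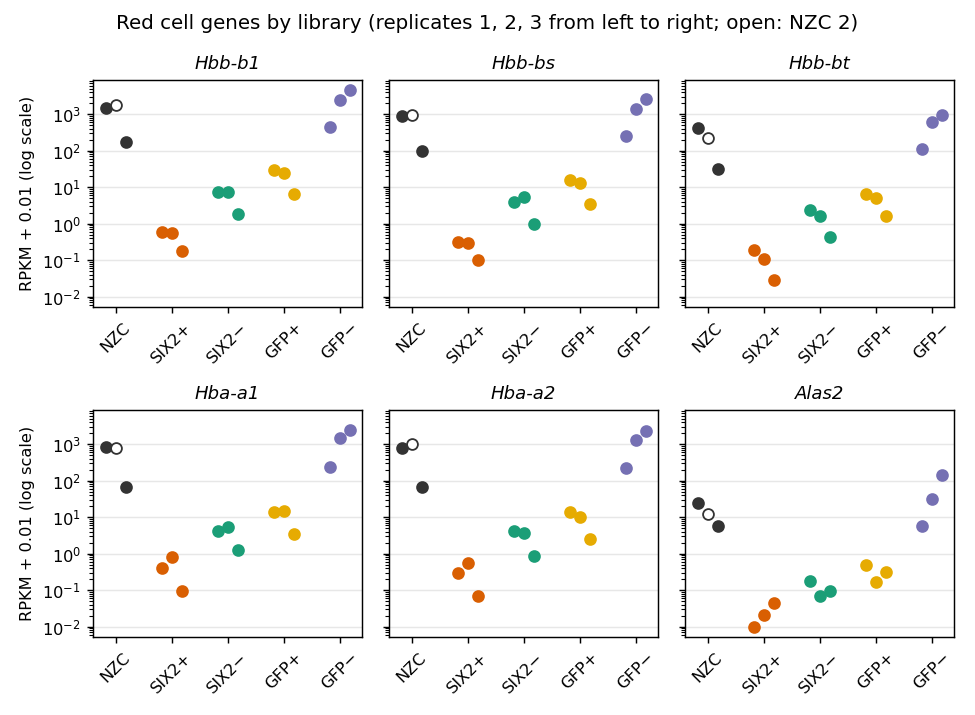
RPKM + 0.01 on a log axis for 5 globin genes and Alas2 in each library, with NZC at the left, then SIX2+, SIX2−, GFP+ and GFP−; points within a group are replicates 1, 2 and 3 and the open circle is NZC 2. For Hbb-b1 all NZC values are at 173 or more, all SIX2+ and SIX2− values at 7.22 or less, and GFP− values at 430.8 or more.

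Among called genes, Zbed6, Tgoln2, Cbl and Mib1 came next after the globins in margin. Zbed6, a transcription repressor encoded within the gene Zc3h11a, was at 14.6, 29.1 and 15.4 RPKM in NZC 1, 2 and 3. It was at 0.64, 1.23 and 1.46 RPKM in SIX2+ cells and at 0.67, 1.08 and 2.38 RPKM in SIX2− cells. The groups did not overlap, and the margin was 2.81 ± 0.33 (limma adjusted p = 0.00289). In GFP+ cells Zbed6 was at 20.7, 10.8 and 20.8 RPKM and in GFP− cells at 23.2, 18.8 and 12.8 RPKM. Both GFP groups thus overlapped the NZC values and lay above both SIX2 fractions. Zbed6 shares 74 exonic bases with Zc3h11a, which was at 58.2 and 56.6 RPKM in NZC 1 and 3, with means of 60.6 in SIX2+ cells and 56.3 in SIX2− cells.

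Cbl, a ubiquitin ligase of receptor tyrosine kinases, was at 7.67, 15.8 and 11.96 RPKM in NZC 1, 2 and 3, at 0.70, 1.04 and 1.74 RPKM in SIX2+ cells and at 0.72, 0.66 and 1.83 RPKM in SIX2− cells. Its margin was 2.32 ± 0.32 (limma adjusted p = 0.0046). Mib1, a ubiquitin ligase that activates Notch ligands, was at 13.6, 35.1 and 21.6 RPKM in NZC 1, 2 and 3, and averaged 2.82 ± 1.07 RPKM in SIX2+ cells and 2.94 ± 1.39 RPKM in SIX2− cells (SD, n = 3 each). Its margin was 2.27 ± 0.30 (limma adjusted p = 0.00453). For both genes, all NZC libraries were above all sorted ones. Zbed6, Cbl and Mib1 stayed called when any single library was left out.

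Tgoln2, a trans-Golgi network protein, was at 5.08, 2.17 and 6.31 RPKM in NZC 1, 2 and 3, at most 0.10 RPKM in SIX2+ cells and at most 1.03 RPKM in SIX2− cells (margin 2.40 ± 0.41, limma adjusted p = 0.0132). Its near copy Tgoln1 was at 18.5 and 11.7 RPKM in NZC 1 and 3, with means of 12.01 in SIX2+ cells and 10.6 in SIX2− cells, with no call (margin 0.29 ± 0.24, limma adjusted p = 0.832). Reads of such copies can be assigned to either, so the value of Tgoln2 is uncertain. It was not called without NZC 1 (adjusted p = 0.105), NZC 3 (0.0936), SIX2− 1 (0.0545) or SIX2− 2 (0.0655).

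More of the called genes, chosen here after their values were seen, had the same order of groups. Lnpep, an aminopeptidase of insulin-responsive vesicles, was at 9.21 and 7.67 RPKM in NZC 1 and 3, with means of 1.17 in SIX2+ cells and 1.30 in SIX2− cells. Rest, a repressor of neuronal genes, was at 17.4 and 17.0 RPKM in NZC 1 and 3, with means of 4.88 in SIX2+ cells and 3.94 in SIX2− cells. Peg3, an imprinted zinc finger gene, was at 74.5, 121.2 and 74.1 RPKM in NZC 1, 2 and 3, at 14.6 to 22.8 RPKM in SIX2+ cells and at 18.3 to 35.3 RPKM in SIX2− cells. Ago2, the argonaute protein that cuts microRNA targets, was at 9.66 and 14.1 RPKM in NZC 1 and 3, with means of 2.60 in SIX2+ cells and 2.51 in SIX2− cells. Margins were 2.04 for Lnpep, 1.68 for Rest, 1.63 for Peg3 and 1.85 for Ago2. Tnks, a poly-ADP-ribose polymerase acting in Wnt signalling, had a margin of 1.87, and Glg1, a Golgi glycoprotein, one of 1.85.

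Over the 106 called genes other than globins, the median level was 7.71, 12.2 and 8.10 RPKM in NZC 1, 2 and 3. It was 1.71, 2.38 and 2.60 RPKM in SIX2+ libraries and 1.91, 2.36 and 3.16 RPKM in SIX2− libraries. The low SIX2 levels restate how these genes were chosen, from NZC 1 and 3 and the sorted libraries. The GFP libraries stood near the unsorted ones, at 9.31, 5.59 and 7.29 RPKM in GFP+ and 9.36, 8.32 and 7.55 RPKM in GFP−. The median over all genes tested was between 9.33 and 10.5 RPKM in all 15 libraries. Between GFP+ and GFP− cells, 3 of the 106 were higher and 16 lower, against 23.6% and 20.2% of all genes tested. Their median difference was −0.07, against 0.10 over all genes tested. The nearer fraction was SIX2+ in 34 of the 112 called genes and SIX2− in the others.

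**Figure D3:**
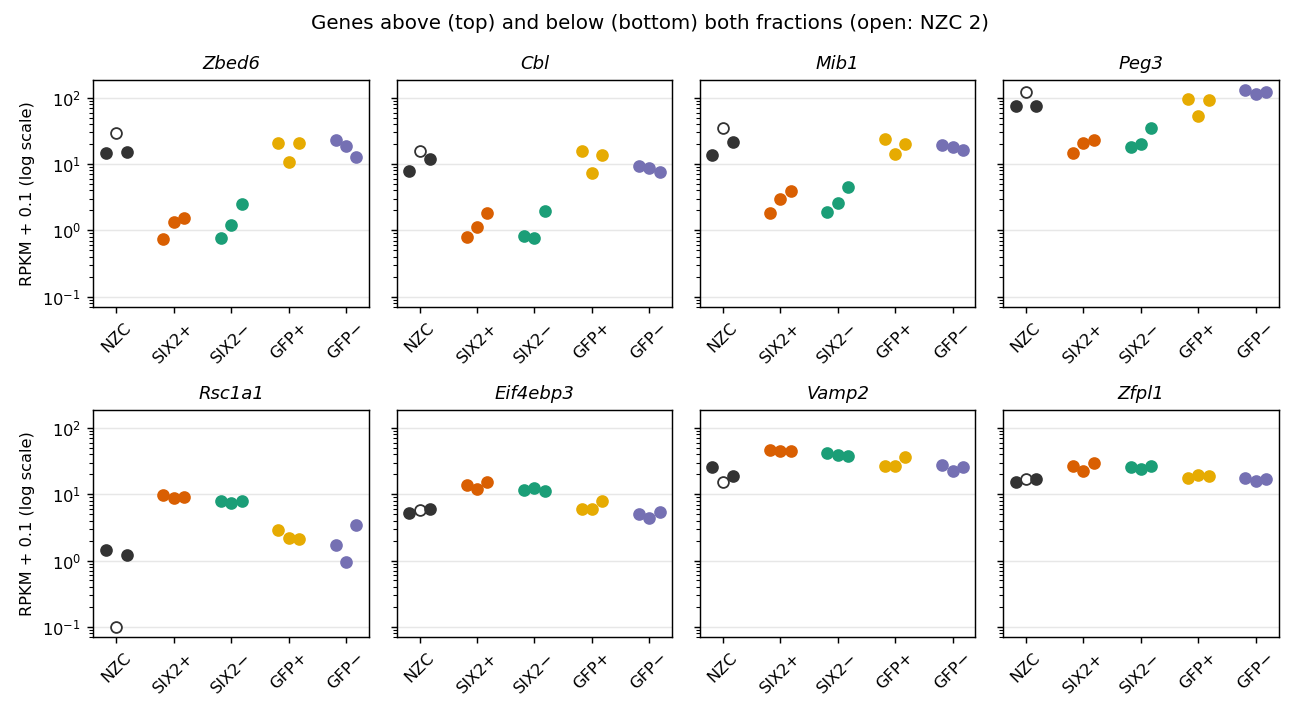
RPKM + 0.1 on a log axis for 4 genes called above both fractions (top) and 4 called below both (bottom), in each library, with NZC at the left, then SIX2+, SIX2−, GFP+ and GFP−; the open circle is NZC 2. Zbed6 is at 14.6 or more in NZC and at 2.38 or less in the SIX2 sort, Eif4ebp3 is at 5.95 or less in NZC and at 11.2 or more in the SIX2 sort, and for Zbed6 the GFP libraries lie between 10.8 and 23.2.

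Transcript length moved with the side a gene fell on. The median length was 6877 bases for the 105 genes called above that had a gene model, 1316 bases for the 10 called below and 2970 bases for all 12097 genes with one. The median 3′ untranslated region was 3785 bases for genes called above, 301 for those called below and 976 for all. The median GC content of the transcripts was 45.3% for genes called above, 52.2% for those called below and 50.7% for all. Of 101 genes called above other than globins, 80 were in the 2 longest deciles of transcripts (10 groups of about equal size by length) and 8 in the 5 shortest deciles. The globins, at 554 to 703 bases, were in the shortest decile.

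Members by the rule showed the same gradient. From the shortest decile (109 to 1200 bases) to the longest (6420 to 123179 bases), the share above both fractions went up from 2.39% to 61.7% and the share below went down from 57.6% to 0.992%. In replicate 2, which the rule did not use, 70.0% of the longest decile was above and 11.9% below. Its shortest decile had 31.3% above and 51.4% below. The median GFP+ minus GFP− difference was 0.18 in the shortest decile and 0.01 in the longest. The length trend was removed from every library as an alternative chosen after the data were seen. Since the labels do not say which RNA kit a library had or whether unsorted cells were fixed, transcript length, preparation and cell makeup cannot be told apart here. There were then 44 genes above and 4 below. Of the 105 called above with a length, 43 were kept, among them Zbed6 (margin 2.60), Cbl (1.81), Mib1 (1.75), Lnpep (1.46), Rest (1.33) and 4 globins. Peg3, Ago2 and Glg1 were among those not kept. Of the 10 called below, Rsc1a1 and Alms1-ps2 were kept. The shortest decile then had 11.1% above and 15.5% below, and the longest 16.9% and 23.1%.

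**Figure D4:**
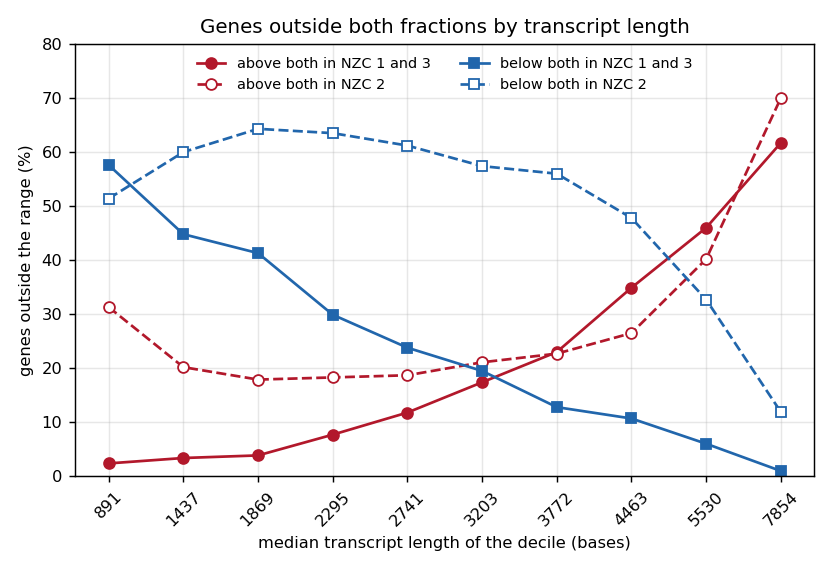
Percent of genes above (red) and below (blue) both fractions in each decile of genes by transcript length, at the decile's median length in bases; filled points are replicates 1 and 3 together, open points replicate 2. The share above in replicates 1 and 3 goes up from 2.39% to 61.7% and the share below goes down from 57.6% to 0.992%.

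Genes below both fractions had short transcripts and small margins. Rsc1a1, a regulator of membrane transporters, was at 1.37 and 1.13 RPKM in NZC 1 and 3 and near 0 in NZC 2. It averaged 9.10 ± 0.50 RPKM in SIX2+ cells and 7.58 ± 0.30 RPKM in SIX2− cells (SD, n = 3 each), so the groups did not overlap. Its margin was −1.94 ± 0.25 (limma adjusted p = 0.0045), and it stayed called when any single library was left out. All 1749 bases of Rsc1a1 (chromosome 4, 141683851 to 141685599, minus strand) lie in exons of Ddi2 on that strand. Ddi2, a protease that activates the transcription factor NFE2L1, was called above, at 12.5 and 17.7 RPKM in NZC 1 and 3 and means of 4.52 in SIX2+ cells and 4.43 in SIX2− cells. Its margin was 1.56 ± 0.27 (limma adjusted p = 0.0132). The values of both are uncertain, since reads from the shared bases can be assigned to either, and they moved in opposite directions. Of the called genes, 7 of 112 above and 2 of 10 below share exonic bases with another gene of the table.

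Eif4ebp3, a translation repressor that binds the cap-binding protein, was at 5.12, 5.59 and 5.95 RPKM in NZC 1, 2 and 3. It averaged 13.7 ± 1.68 RPKM in SIX2+ cells and 11.7 ± 0.70 RPKM in SIX2− cells (SD, n = 3 each; margin −0.96 ± 0.15, limma adjusted p = 0.00957). Tmem265 had a margin of −0.95 ± 0.15 and Msantd2 one of −0.82 ± 0.16. Vamp2, a SNARE protein of vesicle fusion, was at 25.9, 15.5 and 18.6 RPKM in NZC 1, 2 and 3, at 44.7 to 46.1 RPKM in SIX2+ cells and at 37.6 to 41.5 RPKM in SIX2− cells (margin −0.81 ± 0.16). Zfpl1, a Golgi membrane protein, was at 15.1, 17.0 and 16.8 RPKM in NZC 1, 2 and 3, at 22.4 to 29.2 RPKM in SIX2+ cells and at 23.7 to 26.4 RPKM in SIX2− cells (margin −0.63 ± 0.12). For these genes, too, every NZC library was below every sorted one. Snhg20, a noncoding host of small nucleolar RNA, was at 10.4, 19.9 and 9.88 RPKM in NZC 1, 2 and 3, and averaged 36.9 ± 8.61 RPKM in SIX2+ cells and 24.1 ± 6.46 RPKM in SIX2− cells. NZC 2 was above the lowest SIX2− library there, and with NZC 2 in the fit the gene was not called (adjusted p = 0.135).

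Some of these calls were narrow. Eif4ebp3, Tmem265, Msantd2, Vamp2 and Zfpl1 were not called without NZC 1, and Msantd2, Vamp2 and Zfpl1 also not without NZC 3, SIX2− 1, SIX2− 2 or SIX2+ 1, among others. Snhg20 was not called without NZC 1, NZC 3, SIX2− 1, SIX2− 2 or SIX2+ 2. With columns rescaled to the same sum, Eif4ebp3, Tmem265, Msantd2, Vamp2 and Zfpl1 had the same direction and adjusted p-values of 0.0594 to 0.2. Alms1-ps2, a pseudogene that can share reads with Alms1, and Npff, a neuropeptide precursor, had margins of −1.64 and −1.17 from means of at most 3.44 RPKM. The remaining call below was a predicted gene. Over the 10 genes, the median level was 7.41, 7.36 and 8.19 RPKM in NZC 1, 2 and 3. It was 19.2, 18.4 and 16.1 RPKM in SIX2+ libraries, 17.8, 16.0 and 15.2 RPKM in SIX2− libraries, and between 7.24 and 11.1 RPKM in the GFP libraries. In the GFP sort, 2 of the 10 were higher in GFP+ cells and 0 lower, against 23.6% and 20.2% of all genes tested.

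Endothelial genes were farther above the range in NZC 1 than in NZC 2 or 3. Of 16 listed genes, 10 were above in replicates 1 and 3 (21.2% of all genes tested were) and 0 were called. In NZC 1 alone 15 were above, with a median margin of 1.72, in NZC 2 10 were above, with a median margin of 0.29, and in NZC 3 10 were above, with a median margin of 0.14. Of all genes tested, 32.0% were above in replicate 1, 28.7% in replicate 2 and 32.4% in replicate 3. Kdr, a VEGF receptor, was at 22.8, 12.995 and 2.83 RPKM in NZC 1, 2 and 3. It was at most 0.05 RPKM in SIX2+ cells and at 3.01, 5.67 and 1.23 RPKM in SIX2− cells, so NZC 3 lay among the SIX2− libraries. Its margin was 1.29 ± 0.57 (limma adjusted p = 0.371), and without NZC 3 it was 2.61 (0.0205). Cdh5, the cadherin of endothelial junctions, was at 44.5, 17.2 and 7.38 RPKM in NZC 1, 2 and 3, at most 0.21 RPKM in SIX2+ cells and at 8.47, 12.3 and 5.39 RPKM in SIX2− cells. NZC 1 and 2 were above all sorted libraries, and NZC 3 lay among the SIX2− ones. Eng, a TGF-beta co-receptor of endothelium, was at 26.1 and 7.95 RPKM in NZC 1 and 3, with a mean of 20.5 RPKM in SIX2− cells. Summed over the list, NZC 1, 2 and 3 had 513.6, 327.4 and 117.7 RPKM, SIX2+ libraries 108.8 to 143.1 and SIX2− libraries 130.4 to 296.8. Ramp2, a listed gene higher in SIX2+ than in SIX2− cells, was alone at 109.1, 95.3 and 132.0 RPKM in SIX2+ 1, 2 and 3. Ramp2 thus made up most of the SIX2+ sums, and it was at 50.9 RPKM in NZC 3. In the GFP sort, 11 of the 16 were lower and 1 higher in GFP+ cells, against 20.2% lower and 23.6% higher among all genes tested. The 1 higher was Ramp2 (1.42 ± 0.14 log2 units, limma adjusted p = 3.77e-06).

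**Figure D5:**
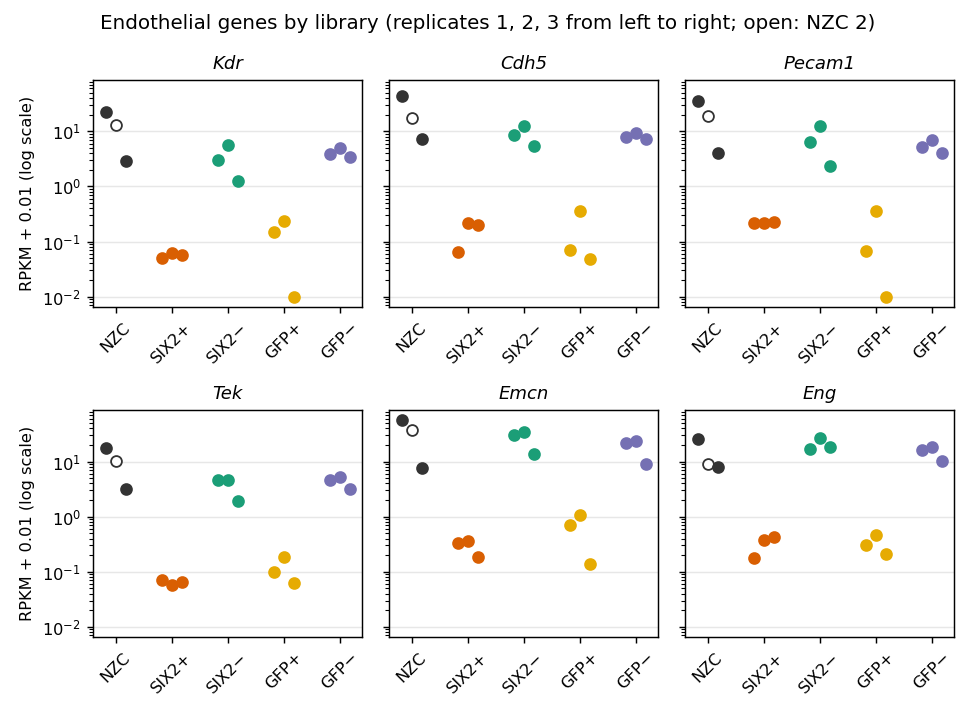
RPKM + 0.01 on a log axis for 6 endothelial genes in each library, with NZC at the left, then SIX2+, SIX2−, GFP+ and GFP−; points within a group are replicates 1, 2 and 3 and the open circle is NZC 2. For Cdh5, NZC 1 at 44.5 and NZC 2 at 17.2 are above all SIX2+ and SIX2− libraries, and NZC 3 at 7.38 lies among the SIX2− values.

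Few markers of other cells of the zone lay on the same side of the range in both replicates 1 and 3. Of 21 nephron progenitor genes tested, 0 were above or below in both, against 21.2% above and 25.0% below of all genes tested. The count was also 0 for 14 mural genes, 15 interstitial matrix genes and 2 platelet genes. Markers that differ strongly between the fractions have a wide range, so values inside it say little about these cells. In replicate 1 alone, 12 of the 15 interstitial genes, 4 of the 14 mural genes and 6 of 15 cortical stroma genes were above, against 32.0% of all genes tested. Gdnf, the ligand of the ureteric receptor Ret, was below the range in replicate 1 and inside it in replicate 3, at 16.1 and 28.4 RPKM in NZC 1 and 3, with means of 22.7 in SIX2+ cells and 27.7 in SIX2− cells. Postn, a matrix protein of stroma, was above the range in replicate 1 and inside it in replicate 3, at 124.8 and 82.4 RPKM in NZC 1 and 3, with means of 0.83 in SIX2+ cells and 82.4 in SIX2− cells. Of 17 macrophage genes, 1 was above and 1 below. The sum over the 18 macrophage genes in the table was 73.7, 66.6 and 63.0 RPKM in NZC 1, 2 and 3, 10.7 to 18.7 RPKM in SIX2+ libraries and 124.1 to 173.5 RPKM in SIX2− libraries. Cd68, a lysosomal protein of macrophages, was at 3.05 and 3.46 RPKM in NZC 1 and 3, with means of 7.83 in SIX2+ cells and 9.67 in SIX2− cells (margin −1.001 ± 0.50, limma adjusted p = 0.456). Cd68 was the 1 gene below, and Lyve1 the 1 above (margin 0.28 ± 0.18, limma adjusted p = 0.631). Over the 17 genes, the median difference of NZC was 1.74 log2 units from SIX2+ cells and −0.88 from SIX2− cells. By its median the list, unlike Cd68, thus lay between the fractions. Among the 15 cortical stroma genes only Fat4, a large cadherin of the stroma, was above in both replicates (margin 0.69 ± 0.29, limma adjusted p = 0.348).

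Epithelial lists differed between the unsorted libraries. Of 14 tubule genes, 2 were above in replicates 1 and 3, 2 in replicate 1, 10 in replicate 3 and 12 in replicate 2. Of all genes tested, 21.2% were above in replicates 1 and 3, 32.0% in replicate 1, 32.4% in replicate 3 and 28.7% in replicate 2. Of 12 ureteric genes, 3 were above in replicates 1 and 3, 9 in replicate 3 and 8 in replicate 2. Calb1, a calcium-binding protein of ureteric and distal cells, was at 11.9, 25.3 and 16.4 RPKM in NZC 1, 2 and 3, at most 0.41 RPKM in SIX2+ cells and at 9.88, 3.83 and 6.10 RPKM in SIX2− cells. All its NZC values were above all sorted ones, with a margin of 1.05 ± 0.39 (limma adjusted p = 0.276). Slc12a1, the sodium-potassium-chloride transporter of the loop of Henle, was at 1.97, 8.63 and 0.77 RPKM in NZC 1, 2 and 3, at most 0.18 RPKM in SIX2+ cells and at 0.19 to 1.03 RPKM in SIX2− cells. Of 20 genes of early nephron differentiation, 5 were above in replicates 1 and 3, near the share over all genes. Among them Lhx1, needed for the renal vesicle, was at 13.2, 15.1 and 30.2 RPKM in NZC 1, 2 and 3, at 2.26 to 4.39 RPKM in SIX2+ cells and at 9.34, 20.5 and 17.8 RPKM in SIX2− cells. None of these lists had a called gene. Of 13 podocyte genes, 3 were above and 1 below, and 0 were called.

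Of 19 cell cycle genes, 7 were above and 0 below in replicates 1 and 3, against 21.2% and 25.0% of all genes tested, and 0 were called. In replicate 2, 5 were above and 12 below. Cenpe, a large kinetochore motor, was at 21.8, 22.7 and 21.2 RPKM in NZC 1, 2 and 3, at 12.8 to 16.1 RPKM in SIX2+ cells and at 12.9 to 15.2 RPKM in SIX2− cells (margin 0.59 ± 0.14, limma adjusted p = 0.0621). It was called with NZC 2 in the fit (0.0279) and without GFP+ 2 (0.0349). Of 81 cytoplasmic ribosomal protein genes, whose median transcript is 878 bases, 64 were below both fractions in replicates 1 and 3, against 25.0% of all genes tested, and 0 were called. That count was 16 with the length trend removed, 47 with columns rescaled and 25 with quantile normalisation, under which 2 were above. In replicate 2, 44 were above and 31 below. Rps26 was at 1047 and 941.7 RPKM in NZC 1 and 3, with means of 1767 in SIX2+ cells and 1582 in SIX2− cells (margin −0.64 ± 0.32, limma adjusted p = 0.448).

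Lists of handling and stress are set against 21.2% of all genes above and 25.0% below in replicates 1 and 3. Of 29 immediate early genes, 1 was above and 2 below, and of 14 heat shock genes, 1 was above and 2 below. Klf6, an immediate early transcription factor, was at 48.2 and 37.1 RPKM in NZC 1 and 3, with means of 7.39 in SIX2+ cells and 32.8 in SIX2− cells (margin 0.40 ± 0.31). Ddit3, a stress-induced transcription factor, was at 14.7 and 13.8 RPKM in NZC 1 and 3, with means of 28.8 in SIX2+ cells and 19.4 in SIX2− cells (margin −0.42 ± 0.16). Of 14 p53 and apoptosis genes, 3 were above and 3 below, close to the shares over all genes. Of 21 hypoxia and glycolysis genes, 0 were above and 5 below, with Aldoa, a glycolytic enzyme, at a margin of −0.41 ± 0.20. Of 13 nuclear noncoding RNAs, 2 were above and 4 below. Of 8 granulocyte and mast cell genes 1 was above and 1 below, as of 6 neural genes, and of 7 secreted protein genes 1 was below. None of these had a called gene.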

How the data were processed

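RNA of E16.5 mouse kidney cells was sequenced from stranded mRNA libraries, and 1 table of 20164 lines and 20162 gene names holds 15 of the 19 libraries of the study; the E14.5 libraries were not used here. The deposited values are in RPKM: the authors' title for the table calls them TPM, but column sums varied by 7.99% (coefficient of variation) and sums of value times gene length in kilobases by 1.91%. Per the submitters' processing notes, TopHat2, Partek and build mm10 were used; versions and counting rules are not stated in the sources used here.

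Values were tested as log2(RPKM + 1), which understates changes of low genes, with limma 3.58.1 (R 4.3.3) on 14 libraries and 5 group means, with 9 residual degrees of freedom and a mean-variance trend. P-values were adjusted by Benjamini-Hochberg over 12493 genes, and calls required an adjusted p under 0.05. The test was tried on simulated data. The depth of each library was estimated from the steps between low values, of which 44.4% to 54.1% came within 0.05 of whole reads, so it is approximate and no count test was run. Lengths, GC content and positions came from GENCODE M21 (GRCm38), and promoters from RefSeq; 25 gene names had been turned into dates. Genes named are Hbb-b1 and Six2, the 10 called with the largest margin on each side (mean of at least 5, no predicted genes or dates), and up to 4 called genes of each of 24 lists, or the one with the largest margin; others were chosen after their values were seen. The members and lists were chosen with earlier results of these data known.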

Additional observations from a re-analysis of the deposited data

Results flagged for a closer look

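Replication-dependent histone genes, whose mRNAs lack a poly(A) tail, stood apart in NZC 2, a library left out of the main test. Over 45 such genes, the median of log2(RPKM + 1) was 7.82 in NZC 2, 1.01 in NZC 1 and 1.80 in NZC 3, and it was at most 2.21 in every other library. Of these genes, 44 lay above both fractions in replicate 2, with a median margin of 5.69, and 1 did in replicates 1 and 3. Rn45s, a ribosomal RNA precursor, was at 762 RPKM in NZC 2, against 3.92 in NZC 1 and 22.7 in NZC 3. NZC 2 also had the lowest depth, and the part of either in its other values was not tested.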

How the results depend on the processing

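The counts of called genes depended on which libraries set the spread. Of the values of the named genes under the alternatives, 1024 kept their side of the threshold, 80 lost the call, 7 gained one and 0 changed sign. Many named genes, such as Six2, Gdnf and Postn, were not called in the main test and could not lose a call. The 1024 therefore do not measure how stable the calls were. With NZC 2 in the fit 18 genes were below both fractions, and with only the 9 NZC, SIX2+ and SIX2− libraries 16. With only replicates 1 and 3 of those groups, limma called 0 above and 0 below, with 515 and 470 at an unadjusted p under 0.05 on 3 residual degrees of freedom. With no filter 63 were above, with values of 5 or more in 3 columns 74, and 1571 genes were then lower in GFP+ than in GFP− cells. Quantile normalisation gave 25 below, columns rescaled to 1000000 gave 4, and the transcript length trend removed gave 44 above and 4 below; this last was chosen after seeing the data. Leaving out 1 library at a time gave 12 to 134 above, 2 to 27 below, 2273 to 3019 higher in GFP+ cells and 2128 to 2595 lower. Pseudocounts of 0.1 and 5, median-of-ratios scaling, library weights and a fit with no trend gave 104 to 125 above and 10 to 12 below. Of genes outside the range in replicates 1 and 3, 1484 were above and 2255 below in replicate 2 too. Against the range of all 6 SIX2 libraries 1262 were above and 1733 below, with an excess of at least 1.5 times 236 and 60, with 2 times 68 and 4, and 1942 were below with rescaled columns. Replicate 1 alone gave 3992 above and replicate 3 alone 4044. The cause was not tested for any of these, beyond fewer genes or libraries entering the test.

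With a replicate block, 433 genes were above and 319 below, with all 112 and 10 kept. Deviations of same-numbered libraries correlated at 0.06 to 0.31 for NZC and SIX2+, 0.19 to 0.50 for NZC and SIX2−, 0.28 to 0.68 for SIX2+ and SIX2−, and 0.40 to 0.48 for GFP+ and GFP−. The pair under 0.1 holds NZC 2; without it NZC has only 2 pairs, and the labels do not say what a number marks, so the NZC and SIX2 libraries were not taken as paired. The numbers of the GFP libraries met the 0.1 level in all 3 pairs, and there the block gave 4180 genes higher and 3128 lower in GFP+ cells. The GFP values in the Results come from the fit without the block, with 2949 genes higher and 2529 lower. Cd68, Ddit3, Cenpe and Hist1h4i were called only with the block or, for Cenpe, also with NZC 2 in the fit or without GFP+ 2. Depth limits NZC 2 most, at 3.09 units of 1000000 reads.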
